A study of Mus musculus with 14 samples.

Results

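Liver sinusoidal endothelial cells line the liver's smallest blood vessels and are marked by a set of genes for scavenger receptors, a growth factor receptor, a junction protein and secreted or endocytic proteins. Stab1, Stab2, Lyve1, Clec4g, Kdr, Pecam1, Gpr182, Oit3 and Dnase1l3 were taken as that set and matched by symbol to the Ensembl gene identifiers of the count files. These are 9 of the 51912 genes counted, and all 9 passed the filter on low counts. RNA was sequenced from the left liver lobe of mice aged 20 weeks, none of them treated, in 14 libraries of 3 groups. The 4 healthy controls, littermates by their labels, carried floxed Tet2 alleles without cre (Tet2fl/fl cre-). The other groups carried the same floxed alleles with cre (Tet2fl/fl vav cre+), and the labels class 5 of these livers as asymptomatic and 5 as having autoimmune hepatitis (AIH). Tet2 encodes an enzyme that oxidises methylated cytosines in DNA. The Vav promoter drives cre in blood-forming cells and their offspring, and it is also known to be active in part of the endothelium. The question addressed here is whether the genes of the sinusoidal lining differed between healthy, asymptomatic and inflamed livers.

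Sinusoidal endothelium differs from other endothelium in that its cells are pierced by open pores, lack a firm basement membrane and take up waste molecules from blood at a high rate. Stabilins and lectins bind these molecules, while Kdr, the main receptor for vascular endothelial growth factor (VEGF) A, keeps the cells in their specialised state. In chronically damaged livers these cells are known to lose pores and take on features of the continuous capillaries of other organs, a process called capillarisation. A bulk measurement cannot tell fewer cells of a type from less RNA per cell, and this holds for each value given here.

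Each library held 15968380 to 18915729 counts in genes, and levels are given as counts per 1000000 counts (CPM), scaled for library composition. Y-linked transcripts and Xist assigned 2 control libraries to females and 2 to males, all 5 asymptomatic libraries to males, and 4 AIH libraries to females and 1 (AIH 4) to a male. Sex and group were therefore entangled, and asymptomatic against AIH rested on a single male AIH library where sex was held fixed. Library numbers in the labels ran from 11 to 15 for AIH and from 1 to 10 for the other groups, so whatever these numbers stand for and AIH cannot be told apart. The share of reads left unaligned was 4.17% to 4.89% in controls, 4.93% to 9.27% in asymptomatic livers and 3.23% to 6.54% in AIH. Tet2 itself was at 8.53, 11.98, 11.5 and 10.8 CPM in controls, at 4.77 to 9.23 CPM in asymptomatic livers and at 7.87, 7.34, 14.2, 7.55 and 15.4 CPM in AIH 1 to 5. A count over the whole Tet2 gene in whole liver also includes exons outside a deletion and cells without cre, so it does not check the deletion. The hepatocyte gene Alb, for serum albumin, and the endothelial gene Cdh5, for VE-cadherin, were measured in every library, so markers of the labelled tissue were present.

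Promoter sequences were found in RefSeq (assembly GRCm38.p6) for 4 of the 9 genes, and 3 are printed because they belong to the 2 genes of these 4 whose values differed most between single AIH livers (Kdr and Clec4g) and to Stab1, which was low in the same AIH livers as Kdr. Each run is the 250 bases before the annotated start, read 5′ to 3′ on the gene's own strand, the minus strand in each case. Capitals mark matches on either strand to core words of 2 transcription factor families of endothelial cells. A GATA word was AGATAA or AGATAG or their forms that begin with T in place of the first A, and an ETS word was AGGAAG, or CGGAAG.
Clec4g, chr8:3720652-3720901: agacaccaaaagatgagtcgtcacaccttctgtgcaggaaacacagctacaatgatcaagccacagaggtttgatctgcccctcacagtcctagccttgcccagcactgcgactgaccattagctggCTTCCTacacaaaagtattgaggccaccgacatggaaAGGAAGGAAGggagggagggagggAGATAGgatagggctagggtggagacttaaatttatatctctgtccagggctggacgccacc
Kdr, chr5:75978456-75978705: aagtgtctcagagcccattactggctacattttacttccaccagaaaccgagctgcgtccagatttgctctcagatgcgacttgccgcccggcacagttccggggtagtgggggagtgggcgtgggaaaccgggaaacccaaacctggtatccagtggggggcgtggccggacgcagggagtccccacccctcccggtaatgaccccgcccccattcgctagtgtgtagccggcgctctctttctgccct
Stab1, chr14:31168642-31168891: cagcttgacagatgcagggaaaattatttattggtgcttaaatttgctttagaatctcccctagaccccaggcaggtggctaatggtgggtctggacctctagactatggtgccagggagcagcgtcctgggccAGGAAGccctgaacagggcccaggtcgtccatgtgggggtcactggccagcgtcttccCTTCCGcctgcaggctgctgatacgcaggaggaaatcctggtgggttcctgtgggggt
The Clec4g window held 1 GATA word and 3 ETS words, the last 2 of which overlap. The Stab1 window held 2 ETS words and no GATA word. In the Kdr window none of these words was found. The Stab2 window, not printed, held 1 ETS word. A GATA word occurred in 26.5% and an ETS word in 39.2% of all 32851 promoters of this length, so a match in a single promoter is common and is a description only.

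Compared per kilobase of exon, the genes stood at different levels in healthy liver. Clec4g was highest at 24.8 ± 5.64 CPM per kilobase (SD, n = 4), followed by Dnase1l3 at 17.6 ± 5.26 and Oit3 at 15.8 ± 2.26. Kdr (9.80 ± 0.59), Gpr182 (9.59 ± 1.63) and Stab2 (8.99 ± 1.10) formed a middle group. Stab1 (6.62 ± 1.24), Lyve1 (5.51 ± 2.88) and Pecam1 (4.64 ± 0.30) were lowest. Of neighbours in this order, only Oit3 and Kdr had ranges that did not overlap in the 4 controls. In AIH the order had Lyve1 at the third place with 16.3 ± 14.3 CPM per kilobase (SD, n = 5) and Pecam1 at the fifth with 10.1 ± 3.33, while Kdr, at 6.63 ± 3.56, and Stab1, at 5.14 ± 1.27, came last. All later levels are CPM, which compare a gene between libraries and not with another gene.

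Of the 9 genes, Pecam1 was the only one that passed the test in AIH against control, about 2.2-fold higher, and none passed in the lower direction. Differences were tested with edgeR's quasi-likelihood test over 14638 genes, with Benjamini-Hochberg adjustment and a threshold of 0.05. In this comparison 21.7% of all genes tested passed, 15.6% in the higher and 6.08% in the lower direction. In AIH against asymptomatic livers, 1 of the 9 passed again (Pecam1, higher), against 29.8% of all genes in either direction, 19.1% higher and 10.7% lower. In asymptomatic livers against control, 0 of the 9 passed and 0% of all genes did, while 1542 of all genes and 0 of the 9 had an unadjusted p under 0.05. DESeq2 called 118 and limma-voom with quality weights 1299 of all genes there, and neither called any of the 9. AIH was compared with both groups in the same libraries, so these comparisons share samples. Of 26 genes outside the 9 that are named with a call in AIH against control, 21 kept it with sex as a term, 8 in females alone and 5 in males alone. The labels name no litters or batches, and the p-values measure the spread between these livers.

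**Figure D1:**
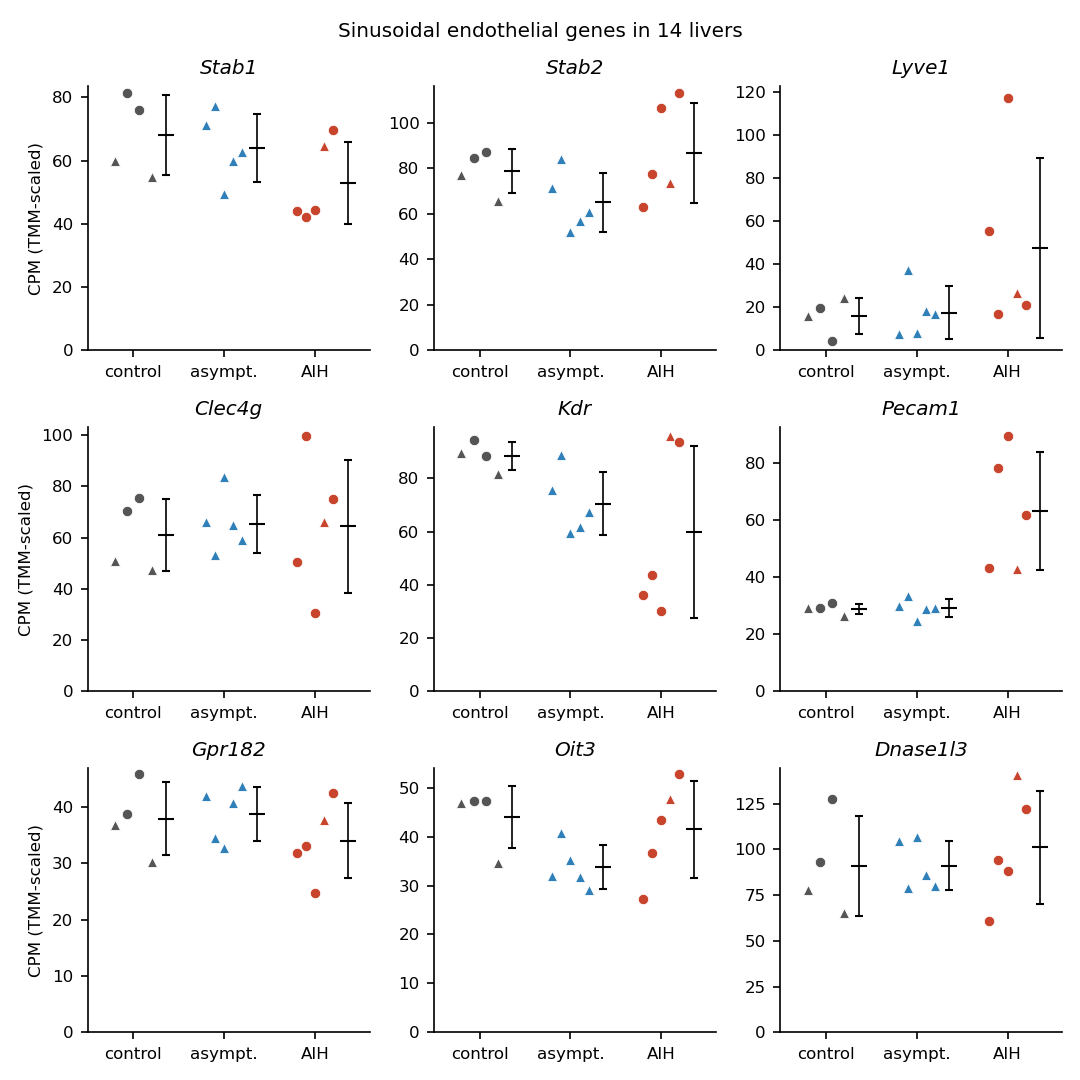
Level of each of the 9 genes in each library, in CPM on a linear axis from 0, by group (control n = 4, asymptomatic n = 5, AIH n = 5), with circles for female and triangles for male libraries and black bars for the mean and SD. Every AIH library lies above every other library for Pecam1, while the AIH libraries of Kdr split between about 30 to 44 CPM and about 93 to 96 CPM.

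Pecam1, also called CD31, encodes an adhesion protein of endothelial cell junctions that platelets and many leukocytes carry as well. It is on chromosome 11 at 106654217-106750628 (ENSMUSG00000020717; GRCm38, minus strand). Its values were 29.2, 29.1, 30.9 and 26.4 CPM in controls, 30.0, 33.5, 24.5, 28.8 and 29.3 CPM in asymptomatic livers and 43.3, 78.3, 89.3, 42.9 and 61.8 CPM in AIH. The lowest AIH liver was above the highest of the other 9, and the controls were close together. In AIH against control 1 of the 9 had groups without overlap, beside 19.8% of all genes, 13.2% with AIH higher and 6.61% lower. The same 1 of 9 stood apart in AIH against asymptomatic, beside 16.9% of all genes, 12.3% higher and 4.65% lower. In asymptomatic against control it was 0 of the 9, beside 2.43% of all genes, 1.27% higher and 1.15% lower. The fold over control was 2.18 (95% interval 1.61 to 2.96), a log2 fold change of 1.13 ± 0.21 (SE; edgeR adjusted p = 0.00146). Over asymptomatic livers it was 2.16 (1.63 to 2.87; edgeR adjusted p = 0.0007). Asymptomatic livers differed from controls by 0.02 on the log2 scale, with an interval from -0.42 to 0.45.

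The sign of the Pecam1 difference was the same in both sexes. The calls held with any single library left out and, against control, with sex as a term, but not within either sex alone. With females alone the log2 fold change over control was 1.16 (edgeR adjusted p = 0.0768), and with males alone, 1 AIH liver against 2 controls, it was 0.61 (edgeR adjusted p = 0.325), where the lone liver is assumed to vary like the other groups. Against asymptomatic livers it was 0.81 (edgeR adjusted p = 0.0613) with sex as a term and 0.65 (edgeR adjusted p = 0.367) with the unaligned share as a term.

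Markers of other cells that carry Pecam1 moved with it. The summed level of 8 leukocyte markers was 184 to 278 CPM in controls, 193 to 231 CPM in asymptomatic livers and 841 to 1458 CPM in AIH, and 8 of 8 rose in AIH against control. Among 9 platelet and megakaryocyte markers, 8 were tested and 8 rose. Their sum was 2.57 to 4.03 CPM in controls, 2.51 to 4.79 CPM in asymptomatic livers and 51.8, 63.0, 66.0, 4.03 and 34.0 CPM in AIH 1 to 5. No marker of either list was at 0 in any group. AIH 4 had a platelet sum no higher than the highest control and the lowest Pecam1 level of AIH, 42.9 CPM, above every control. AIH 3 had both the highest platelet sum, 66.0 CPM, and the highest Pecam1 level, 89.3 CPM. Leukocyte sums were above every control in all 5 AIH libraries. The part of platelets and of leukocytes in the Pecam1 result was not tested. Cdh5, which is largely restricted to endothelium, was also higher in AIH, with a log2 fold change of 0.62 ± 0.21 (edgeR adjusted p = 0.0453). Its levels were 42.1, 47.5, 59.5 and 38.8 CPM in controls and 49.2, 62.2, 79.6, 60.4 and 110.5 CPM in AIH, and these ranges overlap. The Cdh5 call was lost without any 1 of controls 1, 2 and 4 or AIH 2, 3 and 5 (edgeR adjusted p = 0.0508 to 0.148). It was also lost with RLE factors (edgeR adjusted p = 0.0512), with sex as a term (edgeR adjusted p = 0.0998), with the unaligned share as a term (edgeR adjusted p = 0.0679) and with limma-voom (limma-voom adjusted p = 0.0774). The same held with no filter (edgeR adjusted p = 0.0847), with only the 2 groups compared (edgeR adjusted p = 0.0999) and with pan-endothelial scaling (edgeR adjusted p = 0.327).

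Kdr encodes VEGF receptor 2 and is on chromosome 5 at 75932827-75978458 (ENSMUSG00000062960). Controls were tightly grouped at 89.5, 94.3, 88.5 and 81.5 CPM. AIH livers were not: AIH 1, 2 and 3 stood at 36.1, 43.6 and 30.2 CPM and AIH 4 and 5 at 95.8 and 93.5 CPM. The first 3 values lie below every control and the last 2 within or just above the control range, so the coefficient of variation went from 5.98% in controls to 53.7% in AIH. The mean difference, a log2 fold change of -0.56 ± 0.30 with an interval from -1.21 to 0.08, did not pass (edgeR adjusted p = 0.203). Asymptomatic livers stood at 75.6, 88.6, 59.5, 61.7 and 67.2 CPM, and 4 of the 5 were below the lowest control. Their log2 fold change against control was -0.33 ± 0.30 (edgeR adjusted p = 0.720). With limma-voom and quality weights, which lower the weight of libraries that stand apart, Kdr passed as lower in AIH against control at -0.81 (limma-voom adjusted p = 0.0364).

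Among the other genes of the VEGF system, 1 of 8 tested rose and 1 fell in AIH against control. Over all genes tested, 15.6% rose and 6.08% fell. Vegfc, a ligand best known for lymphatic vessels, rose by 0.72 ± 0.22 on the log2 scale (edgeR adjusted p = 0.0274). Nrp2, a co-receptor, fell by 1.01 ± 0.31 (edgeR adjusted p = 0.0321). Neither call was stable: that of Vegfc was lost with sex as a term (edgeR adjusted p = 0.0651), with pan-endothelial scaling (edgeR adjusted p = 0.347) and without control 1, 3 or 4 or AIH 2 (edgeR adjusted p = 0.0618 to 0.0828). That of Nrp2 was lost with library totals (edgeR adjusted p = 0.0758), with only the 2 groups compared (edgeR adjusted p = 0.0510) and without control 2 or 3 or AIH 2 or 3 (edgeR adjusted p = 0.0561 to 0.117). Vegfa, the ligand of Kdr, had a log2 fold change of -0.05, and Flt1, the decoy-like receptor for the same ligand, one of 0.35 (edgeR adjusted p = 0.394). The median over the 8 genes was -0.03, beside -0.01 over all genes tested.

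Stab1 and Stab2 encode stabilin-1 and stabilin-2, paralogous scavenger receptors that clear modified proteins and, for stabilin-2, hyaluronan from blood. Stab1 lies on chromosome 14 at 31139013-31168641 and Stab2 on chromosome 10 at 86841198-87008025. Stab1 was at 60.03, 81.5, 76.2 and 54.7 CPM in controls, at 71.4, 77.2, 49.4, 59.8 and 62.7 CPM in asymptomatic livers and at 44.1, 42.1, 44.2, 64.6 and 69.6 CPM in AIH. AIH 1, 2 and 3 were below every control, and AIH 4 and 5 within the control range. Stab2 was at 77.2, 84.6, 87.3 and 65.7 CPM in controls, at 71.3, 83.9, 51.8, 57.0 and 61.0 CPM in asymptomatic livers and at 63.2, 77.5, 106.7, 73.6 and 113.1 CPM in AIH. Its AIH livers thus reached both below and above the controls. Neither passed: the log2 fold change in AIH against control was -0.36 ± 0.19 for Stab1 (edgeR adjusted p = 0.202). For Stab2 it was 0.14 ± 0.19 (edgeR adjusted p = 0.653), with intervals from -0.78 to 0.05 and from -0.27 to 0.56.

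A ratio of these paralogs within a library does not depend on library scaling. Stab1 over Stab2 was 0.778 to 0.963 in controls, 0.920 to 1.05 in asymptomatic livers and 0.698, 0.543, 0.415, 0.877 and 0.615 in AIH 1 to 5. All 5 AIH ratios were below all 5 asymptomatic ratios, and 1 of them, AIH 4, lay within the control range. The mean log2 ratio was lower by 0.70 in AIH than in asymptomatic livers, a value of -0.71 ± 0.40 (SD, n = 5) against -0.02 ± 0.08 (SD, n = 5; exact two-sided permutation p = 0.00794, the smallest that 5 against 5 can give). Ratios of 5 pairs were tested in 3 comparisons, and adjusted over these 15 tests that p became 0.0595, so none of the 15 passed. Against controls, at -0.22 ± 0.13 (SD, n = 4), the difference was -0.49 (exact permutation p = 0.0556, adjusted 0.139). Without AIH 4, the only male AIH library, the adjusted exact permutation p for AIH against asymptomatic was 0.0397. That run set female AIH livers against male asymptomatic livers, so sex and group cannot be told apart in it. The part of sex in this ratio was not tested.

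Kdr over Pecam1 gave the widest shift of the 5 ratios. It was 2.86 to 3.24 in controls, 2.14 to 2.64 in asymptomatic livers and 0.834, 0.558, 0.339, 2.24 and 1.51 in AIH 1 to 5. Both cre+ groups were below the controls without overlap, and AIH 4 lay within the asymptomatic range. The mean log2 ratio of AIH livers differed from controls by -1.80 (exact permutation p = 0.0159, adjusted 0.0595) and from asymptomatic livers by -1.44 (exact permutation p = 0.0159, adjusted 0.0595). Asymptomatic livers differed from controls by -0.35, at 1.26 ± 0.12 (SD, n = 5) against 1.61 ± 0.07 (SD, n = 4; exact permutation p = 0.00794, adjusted 0.0595). All 5 asymptomatic livers were male, against 2 of the 4 controls, and the part of sex in this ratio was not tested.

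**Figure D2:**
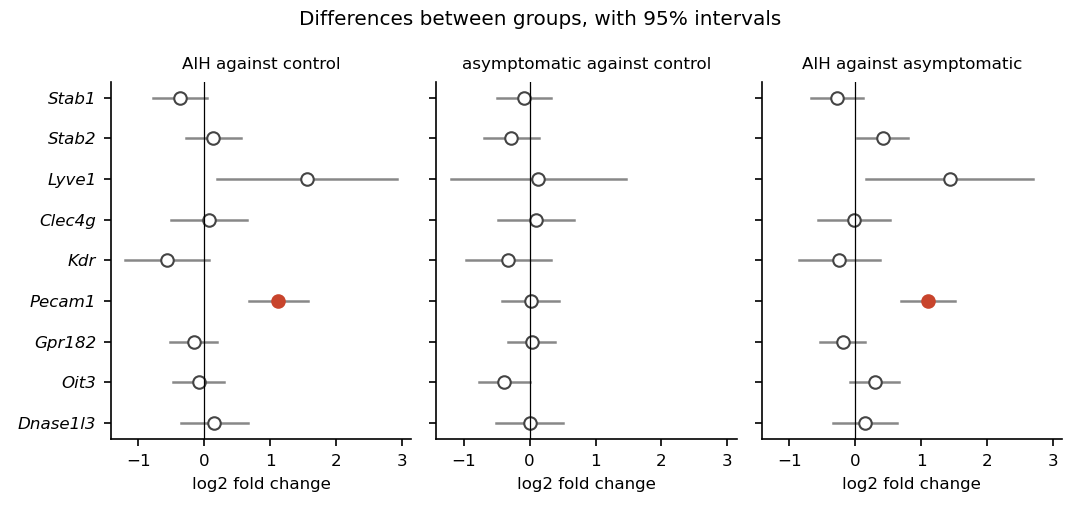
Log2 fold change with its 95% interval for each of the 9 genes in the 3 comparisons (edgeR quasi-likelihood fit of all 14 libraries), with filled red points for an adjusted p under 0.05. Pecam1 is the only red point, at 1.13 against control and 1.11 against asymptomatic, and the Lyve1 intervals are the widest.

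Proteins that stabilins are known to bind or clear were read from a short list of 5 genes, and 3 of these rose in AIH against control. Of all genes tested, 15.6% rose. Sparc, a matrix protein cleared through stabilin-1, rose by 1.49 ± 0.16 on the log2 scale (edgeR adjusted p = 2.84e-05), from 50.8 to 61.3 CPM in controls to 130.2 to 220.2 CPM in AIH. Tgfbi, a matrix protein bound by stabilins, rose by 1.36 ± 0.25 (edgeR adjusted p = 0.00146). Postn, the related protein periostin, rose by 2.73 ± 0.74 (edgeR adjusted p = 0.0172), with AIH 3 far above the rest at 309.6 CPM. The Postn call was lost with sex as a term (edgeR adjusted p = 0.129), with limma-voom (limma-voom adjusted p = 0.0538) and without control 4 (edgeR adjusted p = 0.0514). Fibroblasts are known to make all 3 of these transcripts. The summed level of 10 stellate cell and fibroblast markers was 513 to 746 CPM in controls and 822 to 1541 CPM in AIH, none was at 0 in any group, and 4 of 10 rose. The part of these cells in the 3 results was not tested.

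Lyve1 encodes a hyaluronan receptor of sinusoidal and lymphatic endothelium that some tissue macrophages also express (chromosome 7, 110850607-110863239). It varied more between livers of a group than any other of the 9. Controls stood at 16.2, 19.5, 4.47 and 24.1 CPM, asymptomatic livers at 7.41, 37.4, 7.91, 18.2 and 16.8 CPM and AIH livers at 55.6, 17.0, 117.0, 26.7 and 21.2 CPM. AIH 1 and 3 were above all other libraries, and AIH 2 and 5 were within the control range. The fold over control was 2.95 with an interval from 1.14 to 7.63 and did not pass after adjustment (log2 fold change 1.56 ± 0.64, edgeR adjusted p = 0.0984). DESeq2 called it in the same comparison (log2 fold change 1.56, DESeq2 adjusted p = 0.0352), as did limma-voom (1.53, limma-voom adjusted p = 0.0282). Against asymptomatic livers the log2 fold change was 1.43 ± 0.59 (edgeR adjusted p = 0.0809). It passed there without asymptomatic 2, at 1.91 (edgeR adjusted p = 0.0277), and without AIH 3 the value over control was 0.91.

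Markers of lymphatic endothelium and of Kupffer cells, the liver's macrophages, were read beside Lyve1. Of 6 lymphatic genes 4 were tested, of which Mmrn1 rose by 2.62 ± 0.61 on the log2 scale (edgeR adjusted p = 0.00681). Mmrn1 is also a platelet protein. Prox1, the master regulator of lymphatic identity that hepatocytes express as well, fell by 0.99 ± 0.29 (edgeR adjusted p = 0.0261), a call lost with library totals (edgeR adjusted p = 0.0656) and without control 2 or 4 or AIH 2 (edgeR adjusted p = 0.0534 to 0.0690). The lymphatic chemokine gene Ccl21a was listed at 0 in every library. Only unique reads were counted, so this 0 does not show that its transcript was absent. In all, 10 of 10 Kupffer cell markers rose, beside 15.6% of all genes, and none was at 0 in any group. Their sum was 476 to 963 CPM in controls, 600 to 797 CPM in asymptomatic livers and 2189, 5519, 2019, 1227 and 3509 CPM in AIH 1 to 5. Lyve1 itself was at 55.6, 17.0, 117.0, 26.7 and 21.2 CPM in AIH 1 to 5. The part of lymphatic cells and macrophages in the Lyve1 values was not tested.

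Among the other genes for making, binding or breaking down hyaluronan, 3 of 10 tested rose in AIH against control and 0 fell. Of all genes tested 15.6% rose and 6.08% fell, and the median log2 fold change of the 10 was 0.30. Cd44, the hyaluronan receptor of leukocytes, rose by 2.26 ± 0.23 (edgeR adjusted p = 1.97e-05). Hmmr, a hyaluronan-binding protein of dividing cells, rose by 3.14 ± 0.51 (edgeR adjusted p = 0.0006), and Vcan, a matrix proteoglycan that binds hyaluronan, by 3.78. Vcan was near the floor, at 0.41, 0.28, 0 and 0.06 CPM in controls and 3.65, 2.43, 4.60, 0.34 and 2.12 CPM in AIH. It had counts enough to be tested in only 5 of the 9 runs with a single library left out. The leukocyte sums given with Pecam1 moved with these 3 genes too.

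Clec4g encodes LSECtin, a C-type lectin of sinusoidal endothelium (chromosome 8, 3707064-3720651). It was at 50.8, 70.4, 75.3 and 47.5 CPM in controls, at 66.2, 53.2, 83.5, 64.9 and 59.2 CPM in asymptomatic livers and at 50.4, 99.7, 30.7, 66.1 and 75.2 CPM in AIH. AIH held both the highest and the lowest library of the study, AIH 2 and AIH 3, and the group means were alike at 61.0 ± 13.9, 65.4 ± 11.3 and 64.4 ± 26.0 CPM (SD). The log2 fold change in AIH against control was 0.08 ± 0.27, with an interval from -0.50 to 0.66 (edgeR adjusted p = 0.872). Of the 8 lectin genes listed as its neighbours in the same gene cluster, 2 had counts enough to be tested and 0 passed. These were Cd209b (edgeR adjusted p = 0.453) and Fcer2a, a B cell receptor for immunoglobulin E (edgeR adjusted p = 0.111), and 1 of the 2, Fcer2a, had an unadjusted p under 0.05. Fcer2a was at 0.17 to 0.50 CPM in controls and at 1.25, 0.44, 0.35, 6.94 and 0.40 CPM in AIH 1 to 5. Without AIH 4, only 1 of the 8 neighbours had counts enough to be tested.

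Gpr182 encodes an atypical chemokine receptor of endothelium, which takes up chemokines without signalling through G proteins (chromosome 10, 127747276-127751732). It was among the steadiest of the 9. Its levels were 36.9, 38.8, 45.9 and 30.2 CPM in controls, 41.9, 34.5, 32.8, 40.8 and 43.7 CPM in asymptomatic livers and 31.9, 33.1, 24.7, 37.7 and 42.5 CPM in AIH. The groups overlapped throughout, apart from AIH 3, which was below all other libraries. The log2 fold change in AIH against control was -0.16 ± 0.17, with an interval from -0.52 to 0.20 (edgeR adjusted p = 0.544). Around it, 3 of 8 other atypical receptors and chemokine ligands rose, beside 15.6% of all genes, with a median log2 fold change of 1.38 over the 8. They were Cxcl13, a B cell chemokine, at 3.52 ± 0.71 (edgeR adjusted p = 0.00292), the venular receptor Ackr1 at 2.13 ± 0.47 (edgeR adjusted p = 0.00482) and the receptor Ackr3 at 1.97 ± 0.52 (edgeR adjusted p = 0.0141, or 0.0511 without control 4).

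Oit3 encodes a zona pellucida domain protein of liver, used as a marker of sinusoidal endothelium (chromosome 10, 59422958-59441778). It was at 46.8, 47.3, 47.3 and 34.5 CPM in controls, at 31.99, 40.8, 35.3, 31.7 and 29.1 CPM in asymptomatic livers and at 27.2, 36.6, 43.3, 47.6 and 52.7 CPM in AIH. Apart from control 4, the controls were above all asymptomatic livers. In asymptomatic against control it had the smallest p of the 9, with a log2 fold change of -0.38 ± 0.18, an interval from -0.77 to 0.01 and an unadjusted edgeR p of 0.0533 (adjusted 0.482). In AIH against control the log2 fold change was -0.08 ± 0.18 (edgeR adjusted p = 0.789).

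Dnase1l3 encodes a secreted nuclease that digests DNA in chromatin and in particles released from dying cells, made by dendritic cells and macrophages as well as by sinusoidal endothelium (chromosome 14, 7964533-7994573). Its levels were 77.6, 93.0, 127.7 and 65.2 CPM in controls, 104.7, 78.8, 106.5, 85.9 and 79.7 CPM in asymptomatic livers and 60.8, 94.2, 88.3, 140.4 and 122.1 CPM in AIH. The ranges overlapped, and the highest AIH liver was AIH 4. The log2 fold change in AIH against control was 0.15 ± 0.24, with an interval from -0.36 to 0.66 (edgeR adjusted p = 0.692). Of 6 dendritic cell markers tested, 5 rose in the same comparison. The sum of all 8 listed markers was 71.5 to 114 CPM in controls, 107 to 155 CPM in asymptomatic livers and 147 to 384 CPM in AIH. No marker was at 0 in any group. Most of each sum was Bst2, at 68.5 to 110.2 CPM in controls and 129.4 to 343.9 CPM in AIH, so the sums mainly follow that gene. The part of dendritic cells in the Dnase1l3 values was not tested. Of 4 other nuclease genes tested, 0 rose and 1 fell, beside 15.6% and 6.08% of all genes. Dnase2b, an acid nuclease best known from the lens, fell by 0.63 ± 0.19 (edgeR adjusted p = 0.0304). That call was lost with library totals (edgeR adjusted p = 0.0853), with sex as a term (edgeR adjusted p = 0.0715) and with only the 2 groups compared (edgeR adjusted p = 0.0610). It was also lost without control 1 or 4 or AIH 2 or 5 (edgeR adjusted p = 0.0599 to 0.0726).

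Of 20 other genes marking sinusoidal endothelium 1 rose and 1 fell in AIH against control, beside 15.6% and 6.08% of all genes, with a median log2 fold change of -0.11. Tfec, a transcription factor also found in macrophages, rose by 1.44 ± 0.36 (edgeR adjusted p = 0.0101). Bmp2, a sinusoidal signal that sets iron hormone output in hepatocytes, fell by 0.86 ± 0.25 (edgeR adjusted p = 0.0254), from 35.0, 38.3, 23.5 and 27.1 CPM in controls to 12.4, 10.2, 15.2, 26.7 and 20.8 CPM in AIH. Its partner Bmp6, listed with the angiocrine signals, fell by 1.40 ± 0.40 (edgeR adjusted p = 0.0214). The Bmp2 call was lost without control 1 or 2 or AIH 1, 2 or 3 (edgeR adjusted p = 0.0584 to 0.0705), and the Bmp6 call without control 2 or AIH 3 (edgeR adjusted p = 0.0507 to 0.0639). With only the 2 groups compared, both the Bmp2 and the Bmp6 call were lost (edgeR adjusted p = 0.0550 and 0.0548). The transcription factors Gata4 and Maf, which act in sinusoidal identity, had log2 fold changes of -0.46 and 0.16, and the endocytic receptors Fcgr2b and Mrc1 of -0.07 and 0.27, none past the threshold. In AIH against asymptomatic, 5 of the 20 rose and 1 fell, beside 19.1% and 10.7% of all genes. Of these 6, Fcgr2b, Mrc1, Maf and Tfec (higher) and Gata4 (lower) were not called with sex as a term (edgeR adjusted p = 0.512, 0.462, 0.535, 0.667 and 0.549). Apart from Tfec they were also lost without AIH 5, among other single libraries.

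Angiocrine factors are signals that endothelial cells send to their neighbours. Of 15 tested, 3 rose and 2 fell (Bmp2 and Bmp6, above) in AIH against control, beside 15.6% and 6.08% of all genes. The median of the 15 was -0.01, and without AIH 3 the count that fell was 0. Tgfb1, a fibrogenic growth factor of many cell types, rose by 1.44 ± 0.24 (edgeR adjusted p = 0.0007). Pdgfb, which recruits stellate cells, rose by 1.37 ± 0.31 (edgeR adjusted p = 0.00578), and Angpt2, which loosens vessels, by 1.85 ± 0.46 (edgeR adjusted p = 0.0101). The ligands of liver zonation gave log2 fold changes of -0.40 (Wnt2), -0.08 (Wnt9b) and -0.08 (Rspo3), and none passed.

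Of genes that mark continuous, venous and arterial endothelium, 10 of 17 tested rose and 0 fell in AIH against control. Over all genes tested, 15.6% rose and 6.08% fell. The median log2 fold change of the 17 was 1.05, beside 0.08 for the 9 sinusoidal genes and 0.21 for 22 genes of endothelium in general, of which 3 rose. Cd34, a sialomucin of continuous capillaries that sinusoids lack, rose by 2.51 ± 0.45 (edgeR adjusted p = 0.00121). It was at 1.75, 1.98, 1.74 and 2.12 CPM in controls and at 8.02, 8.94, 24.9, 6.88 and 5.50 CPM in AIH, without overlap. Plvap, the diaphragm protein of capillary pores in other organs, rose by 1.01 ± 0.21 (edgeR adjusted p = 0.00329, or 0.0792 with pan-endothelial scaling), from 37.6 to 45.6 CPM in controls to 60.3 to 118.3 CPM in AIH. Vwf, a clotting protein stored in venous and arterial endothelium and in platelets, rose by 1.51 ± 0.40 (edgeR adjusted p = 0.0139, or 0.0609 with sex as a term), from 8.53 to 11.3 CPM to 11.9 to 65.4 CPM, and its lowest AIH value was in AIH 4. Vcam1, an adhesion receptor for leukocytes that macrophages and stellate cells also express, rose by 2.35 ± 0.42 (edgeR adjusted p = 0.0012). Ly6a, a surface protein of both endothelium and lymphocytes, rose by 3.01 ± 0.60 (edgeR adjusted p = 0.00247). In asymptomatic livers 0 of the 17 passed. Markers of other cells moved with this group: 8 of 8 platelet markers (median log2 fold change 4.05), 8 of 8 leukocyte markers (2.79) and 4 of 10 stellate cell and fibroblast markers (0.74) rose, with the sums given above. Their part in these results was not tested.

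Of the continuous endothelium list, 7 of 17 rose when libraries were scaled to 10 pan-endothelial genes and 9 of 17 with sex as a term. Of all genes, 1517 and 1890 of 14638 rose under these settings. In females alone it was 2 of 19, beside 730 of 15001 genes. In males alone, with 1 AIH liver, the median log2 fold change of the list was 0.86. The summed level of those 10 pan-endothelial genes was 147 ± 21.2 CPM in controls (SD, n = 4) and 192 ± 41.9 CPM in AIH (SD, n = 5), with ranges of 123 to 174 and 137 to 237 CPM. Under that scaling, which asks how a gene moved relative to general endothelial RNA, the median of all genes shifted to -0.37 in AIH against control. Pecam1 stayed higher at 0.72, while Stab1 at -0.71 (edgeR adjusted p = 0.0253) and Kdr at -0.94 (edgeR adjusted p = 0.0349) were called lower. Of all 14638 genes, 2238 were called lower and 1517 higher under this scaling. The Stab1 and Kdr values are read against these counts and that shift of the median.

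**Figure D3:**
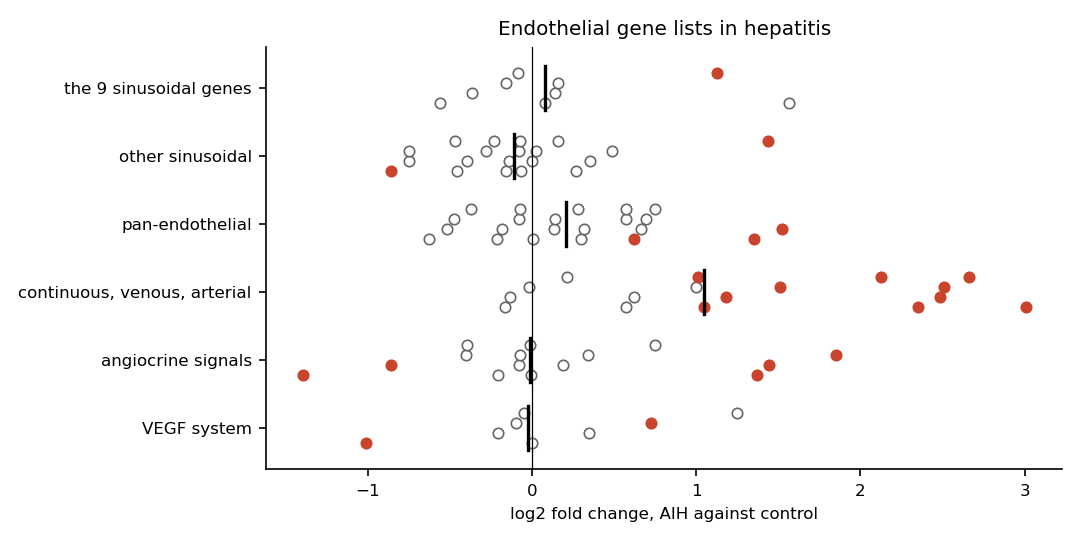
Log2 fold change in AIH against control for each tested gene of 6 lists, with filled red points for an edgeR adjusted p under 0.05 and a black bar for the median of the list. Sinusoidal genes scatter around 0, with medians of 0.08 and -0.11, and genes of continuous, venous and arterial endothelium have a median of 1.05.

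Within the AIH group the 9 genes did not move as a block. Kdr and Stab1 were lowest in AIH 1, 2 and 3, Clec4g and Gpr182 were lowest and Lyve1 highest in AIH 3, Oit3 and Dnase1l3 were lowest in AIH 1, and Stab2 was highest in AIH 5. Ehd3, an endocytic recycling protein of sinusoidal endothelium, had the same pattern as Kdr, at 50.6, 47.3, 29.4, 103 and 90.8 CPM in AIH 1 to 5 and 86.4 to 140 CPM in controls (log2 fold change -0.75 ± 0.29, edgeR adjusted p = 0.0809). AIH 4, whose Kdr and Stab1 were at or near control levels, was the male library. It had the lowest Kupffer and platelet sums of the AIH group, at 1227 and 4.03 CPM. AIH 5, female, also had Kdr and Stab1 within or near the control range, with a Kupffer sum of 3509 CPM and a platelet sum of 34.0 CPM. The part of sex and of inflammatory cells in the split was not tested.

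**Figure D4:**
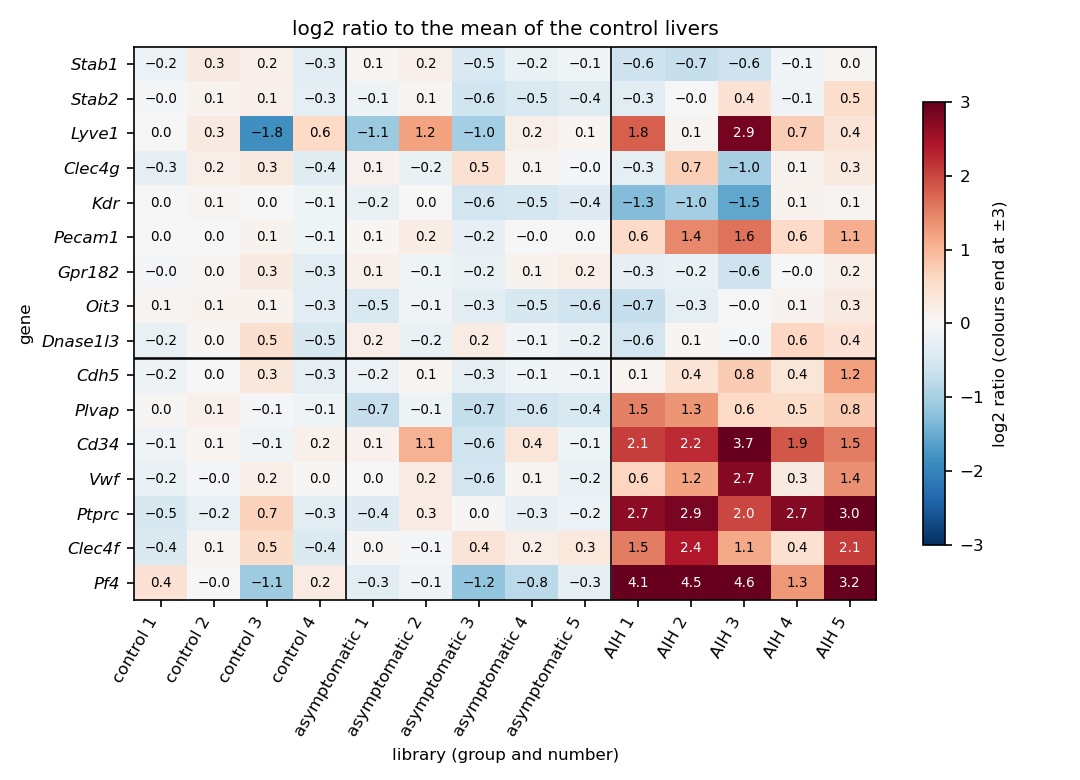
Log2 ratio of each library to the control mean for the 9 genes and for Cdh5, Plvap, Cd34, Vwf, Ptprc, Clec4f and Pf4 in all 14 libraries, with colours ending at 3 and -3. The genes of leukocytes (Ptprc), Kupffer cells (Clec4f) and platelets (Pf4) are above the control mean in AIH, while Kdr and Stab1 are below control in AIH 1, 2 and 3 and near it in AIH 4 and 5.

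For each gene, the genes whose log2 CPM followed it most closely over the 14 libraries were ranked by Pearson's r among 13084 genes with a mean of at least 1 CPM. These values describe libraries that share group, sex and depth, and they carry no test. Kdr was followed by C2cd2 (r = 0.923) and Ehd3 (r = 0.922). Pecam1 was followed by Apobr and Ccdc80 (both r = 0.970), Lyve1 by Lrrfip1 (r = 0.942) and Msrb3 (r = 0.930), and Stab1 by Lrp1 (r = 0.9003), a large endocytic receptor, and Bag6 (r = 0.878). Stab2 was followed by Tet2 (r = 0.898), the gene floxed in all groups, and by Mrc1 (r = 0.890), the mannose receptor of sinusoidal cells and macrophages. Clec4g was followed by Scly (r = 0.896) and Nr1h3 (r = 0.877), Gpr182 by Ambra1 (r = 0.881) and Leng1 (r = 0.878), Oit3 by Sash1 (r = 0.908) and Abca8b (r = 0.887), and Dnase1l3 by Il11ra1 (r = 0.820) and Fam171a1 (r = 0.815). The 9 genes themselves were left out of the ranking.

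Exons of 4 of the 9 genes overlap those of another gene. Stab1 shares 112 exon bases with Nt5dc2 and Gpr182 shares 74 with Zbtb39, both expressed on the opposite strand, and without a stated strand setting reads in those bases cannot be assigned. For Stab2 (Gm16268) and Clec4g (Gm16553) the partner had 2 and 8 counts in all 14 libraries.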

How the data were processed

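RNA-seq was done on left liver lobe from 14 mice, with 1 count file each. The authors deposited raw counts per Ensembl gene. The submitters' processing notes name HISAT2 2.1.0 (an aligner), HTSeq 0.9.0 (a read counter), the read tools cutadapt 1.12 and FastQC 0.11.5, and R 4.0 with edgeR, and list the builds GRCm38 and GRCh38 without roles. The annotation release and strand setting are not given in the sources used here. Reads that HTSeq listed as not unique (28.8% to 37.0%) or as unaligned sit in 5 summary lines, left out of totals and tests. Because only unique reads were counted, genes with close copies can be understated.

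Counts were analysed in R 4.3.3 with edgeR 4.0.16 (filterByExpr, TMM factors, 1 quasi-likelihood fit of all 14 libraries, Benjamini-Hochberg adjustment over 14638 genes, threshold 0.05). CPM used TMM library sizes. Alternatives were RLE factors, library totals, scaling to 10 pan-endothelial genes, no filter, at least 1 CPM in 4 libraries, DESeq2 1.42.0, limma-voom 3.58.1 with quality weights, only the groups compared, sex or unaligned share as a term, each sex alone and each library left out. Ratios of 5 pairs used exact two-sided permutation tests on log2 ratios of raw counts, each plus 0.5. The script was tested on simulated counts.

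The 9 genes and all lists were chosen with earlier results of these data known. Named besides them were preset genes, up to 3 genes per list by smallest p in AIH against control, and the 2 genes most like each member. Positions are from GENCODE M21 (GRCm38), lengths are summed exons, and promoters are RefSeq GRCm38.p6. Where a list held one of the 9, it was left out of the list's counts.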

Additional observations from a re-analysis of the deposited data

Results flagged for a closer look

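Control 4 had an Oit3 level of 34.5 CPM, far below the other 3 controls at 46.8 to 47.3 CPM. Of 42 sets checked for a lone library (9 genes and 5 ratios in 3 groups), this was the only one marked, where chance marks about 1 in 20. Stab1 was lower in AIH than in same-sex controls in 4 of 4 females, by a mean log2 difference of -0.69, and higher in the 1 male AIH liver, at 0.17. The difference between the sexes was not tested, as a single male AIH liver has no spread of its own.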

How the results depend on the processing

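In both comparisons with AIH the Pecam1 difference kept its sign under each alternative run, with log2 fold changes of 0.97 to 1.25 against control and 0.95 to 1.23 against asymptomatic as single libraries were left out. No paired analysis was run, because the groups were different mice and the labels name no litters. The replicate numbers used follow accession order. In AIH against control the number of the 9 genes called was 1, where 3174 of all 14638 genes were called. It was 3 with pan-endothelial scaling, 2 with DESeq2 and 2 with limma-voom, where 3755, 3792 and 3674 of all genes were called. In females alone it was 0, where 839 of 15001 genes were called. Leaving out libraries gave 1 to 1 of the 9. In AIH against asymptomatic the number of the 9 called was 1, where 4355 of all genes were called. It was 3 with library totals or pan-endothelial scaling, where 3975 and 5707 of all genes were called. With DESeq2 or limma-voom it was 2, where 5056 and 5515 of all genes were called. It was 0 with sex or with the unaligned share as a term, where 1372 and 562 of all genes were called. Leaving out libraries gave 1 to 3, with Stab2 (0.53, edgeR adjusted p = 0.0434) and Lyve1 added without asymptomatic 2. In asymptomatic against control it was 0 under each setting. Of 15 ratio tests, 0 passed with all libraries and 0 to 3 as libraries were left out, 3 without AIH 4, the only male AIH library. Library totals moved the share of AIH against control calls that were higher from 72.0% to 89.8% and the median of all genes to 0.14, and pan-endothelial scaling moved that share to 40.4%.

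Signs that turned belonged to differences that had not passed the test, and their cause was not tested. For AIH against control, pan-endothelial scaling gave Stab2 -0.26, Clec4g -0.25 and Dnase1l3 -0.19, limma-voom Clec4g -0.046, females Clec4g -0.21 and Dnase1l3 -0.29, males Stab1 0.15, Kdr 0.15, Gpr182 0.15 and Oit3 0.21, and library totals Gpr182 0.0026 and Oit3 0.061. For asymptomatic against control, males gave Stab1 0.15 and Lyve1 -0.20, the unaligned share Stab2 0.034, Gpr182 -0.18 and Dnase1l3 -0.30, limma-voom Lyve1 -0.22, library totals Pecam1 -0.038, Gpr182 -0.024 and Dnase1l3 -0.050, and the 2 groups alone Dnase1l3 -0.0071. For AIH against asymptomatic, pan-endothelial scaling gave Stab2 -0.012, Oit3 -0.12 and Dnase1l3 -0.26, library totals Clec4g 0.21 and Gpr182 0.026, the unaligned share Clec4g 0.011 and Gpr182 0.049, males Clec4g 0.0075 and Kdr 0.43, sex Kdr 0.033, and limma-voom Dnase1l3 -0.067. With single libraries left out, AIH against control ranged from -0.12 to 0.25 for Clec4g and -0.21 to 0.046 for Oit3. Asymptomatic against control ranged from -0.16 to 0.026 for Stab1, -0.35 to 0.40 for Lyve1, -0.0027 to 0.22 for Clec4g, -0.040 to 0.073 for Pecam1, -0.048 to 0.13 for Gpr182 and -0.11 to 0.22 for Dnase1l3. Clec4g in AIH against asymptomatic ranged from -0.22 to 0.15, the log2 ratio of Lyve1 to Stab2 in asymptomatic against control from -0.19 to 0.76, and that of Clec4g to Stab2 in AIH against control from -0.33 to 0.21.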
